A study of Danio rerio with 370 samples.

Results

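Cytosolic ribosomal proteins were followed through the radial glia (RG), newborn neuron (NBN) and mature neuron (MN) gates of the adult zebrafish forebrain. The genes were chosen by name: symbols beginning with rpl or rps and a number, or the stalk genes *rplp0*, *rplp1* and *rplp2* or *rpsa*, leaving out 11 S6 kinase genes (*rps6k*), 4 copies with a letter l after the number, and *rps19bp1*, which encodes a binding protein. This gave 78 of the 32266 listed genes, 44 of the large and 34 of the small subunit, under 74 distinct symbols. *rpl36al*, in which the letter l does not directly follow the number, was kept. No gene carried the symbol *rpsa* itself. The genes listed as *rpsa2* and *rplp2l* were present but fell outside the naming rule and were left out. The gene listed as *rps4y2* is the *rps4* gene of the table used for names.

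Cells came from double-transgenic *her4.1:mcherry*; *elavl3:gfp* adult fish of either sex, from tissue that held telencephalon and anterior diencephalon. The *her4.1* promoter drives mCherry in RG and the *elavl3* promoter drives GFP in neurons, and all groups carried both reporters. RG were sorted as mCherry high and GFP negative, NBNs as mCherry low and GFP positive, since they keep mCherry protein made in their RG mother cell, and MNs as mCherry negative and GFP positive. Single cells were sequenced with SMART-seq2, and 264 of 370 cells passed the quality filters: 73 of 171 RG, 164 of 169 NBNs and 27 of 30 MNs. The study kept the same total but other numbers per gate, so the cells used here are not exactly those of the study. The age of the sorted fish is not given in the sources used here.

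The labels of RG and NBN cells gave 5 numbered fish of batch bfx855, and the cells of batch bfx811, which carry no number, were taken as 1 further fish, so that this fish and its batch cannot be told apart. MNs came only from bfx811. Reads were summed over the cells of a fish and group, giving sums of 593733 to 11933343 reads, and fish were the replicates. As markers of the gates, 9 RG genes together made up 18432 to 38983 CPM (the reads of a gene scaled to a common library total) in the 6 RG sums and 506 to 2606 CPM in the 6 NBN sums, and 5 neuronal genes made up 0 to 314 CPM in RG and 3001 to 4549 CPM in NBNs.

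A ribosome is built from a large and a small subunit, each of ribosomal RNA and one copy of most of its ribosomal proteins, so the proteins of both subunits are made in step. Their mRNAs are among the most abundant of a cell, and in vertebrates most of them begin with a stretch of pyrimidines through which growth signals switch their translation. Growing and dividing cells make many ribosomes. A young neuron that has left the cell cycle still needs them to build its processes.

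The share of reads on the 78 genes was higher in RG than in NBNs in 5 of 6 fish. In RG it was 17.9%, 15.2%, 7.39%, 9.39% and 9.49% in fish 1 to 5 and 7.12% in bfx811. In NBNs it was 9.72%, 5.38%, 9.36%, 5.02% and 7.81% in fish 1 to 5 and 2.09% in bfx811. The ranges of the gates overlapped, and fish 3 was the exception, with a lower share in RG than in NBNs. The means were 11.1% ± 4.43 (SD, n = 6) in RG and 6.57% ± 2.94 (SD, n = 6) in NBNs, a mean difference of 4.51 ± 4.28 percentage points (SD over fish). In the single MN sum, of bfx811, the share was 2.12%. These shares are relative to the other reads of the cells, so more reads on these genes and fewer on others cannot be told apart.

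**Figure D1:**
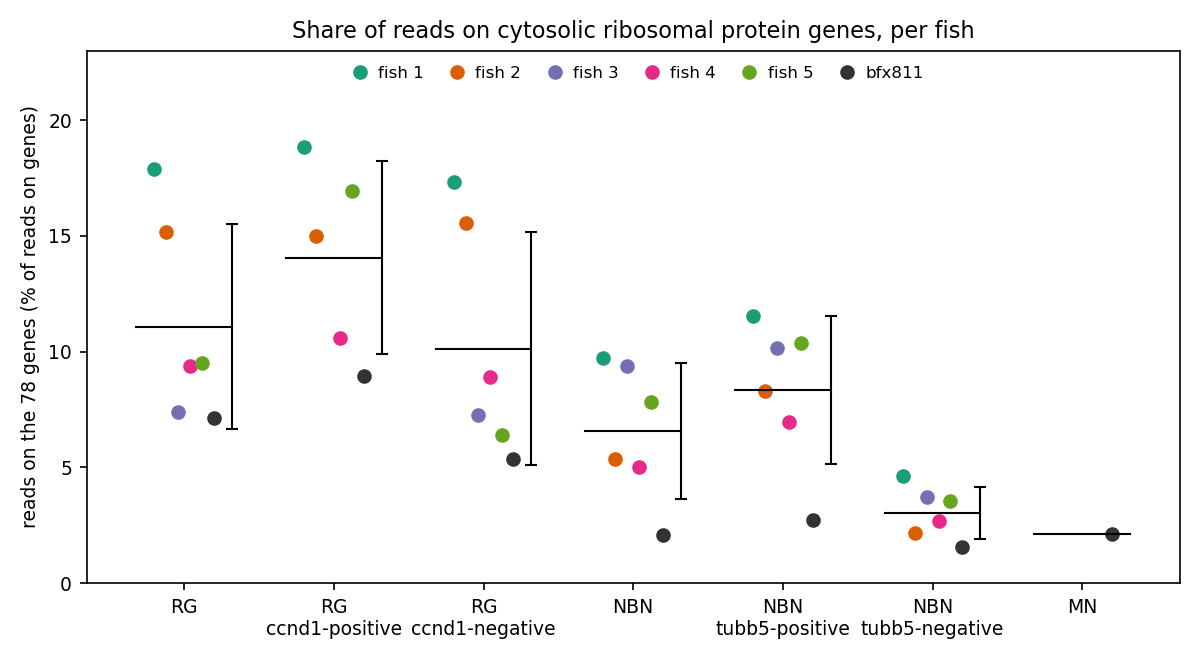
Share of reads on the 78 cytosolic ribosomal protein genes (y axis, percent of reads on genes) in each group (x axis); each point is the summed reads of 1 fish, horizontal lines are means and bars are SD over fish. The tubb5-negative NBN sums lie between 1.55% and 4.61%, and in every fish below the tubb5-positive sum of the same fish.

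The balance between the subunits hardly moved. Large subunit genes took 59.3% to 61.4% of the ribosomal protein reads in the 6 RG sums, 59.7% to 61.4% in the 6 NBN sums and 61.2% in the MN sum. The subunit share in the smallest sums, those of RG split by *ccnd1*, ranged from 58.7% to 63.7%. The share of the whole family moved between fish and gates while the make-up of its reads by subunit stayed within these limits.

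Gene by gene, the RG and NBN sums were tested by quasi-likelihood in edgeR (Benjamini-Hochberg adjustment, adjusted p under 0.05). Of the 78 genes, 77 had a fitted level higher in RG, with a median log2 fold change of 0.46 over the 78 against -0.69 over all 8393 genes tested. None was called higher in RG, against 1.81% of all genes tested. One was called lower in RG, against 6.66% of all genes tested. DESeq2 also called 0 higher and 1 lower, against 320 higher and 770 lower of all 8393 genes tested. At an unadjusted p under 0.05 edgeR gave 2 of the 78, against 1445 of all 8393 genes tested. The median of the family was 0.26 without fish 2, with 71 of the 78 genes fitted higher, and 0.95 without fish 3. Microglial markers (3 genes), which belong to neither gate, summed to 0 to 2008 CPM in RG and 0 to 64.1 CPM in NBNs. Markers of oligodendrocyte precursors (3 genes) had a median sum of 0 CPM in RG and 299 CPM in NBNs, and ependymal markers (2 genes) one of 186 CPM in RG and 0.0419 CPM in NBNs. The part of these cell types in the values was not tested.

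*rps20*, a protein of the small subunit head, came nearest to a call for a higher level in RG. It was at 3468.5, 2519, 1307, 1790 and 1695 CPM in RG of fish 1 to 5 and 1651 CPM in bfx811. In NBNs it was at 1206, 627, 1291, 694 and 1009 CPM in fish 1 to 5 and 401 CPM in bfx811. All RG sums lay above all NBN sums, by a small margin in fish 3. The log2 fold change was 0.99 ± 0.38 (SE), with an adjusted p of 0.149 (edgeR). It passed in edgeR with DESeq2's size factors (log2 fold change 1.27, adjusted p = 0.0275) and with library size alone (1.26, adjusted p = 0.0409). It passed too in thinned cells (1.19, adjusted p = 0.0401) and in all 370 cells (1.53, adjusted p = 0.00893). Without fish 3 it passed as well (1.51, adjusted p = 0.0225). *rps20* did not pass in DESeq2 itself (adjusted p = 0.0631), without a low-count filter (0.0905) or with normalization factors computed without the family (0.116). It also failed in edgeR with plates as replicates (0.0845) and with a blocking term for fish (0.165). Leaving out any other single fish gave adjusted p-values from 0.179 to 0.422.

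The next lowest adjusted p-values among genes fitted higher in RG were those of *rpl29* (log2 fold change 0.85 ± 0.43, adjusted p = 0.333, edgeR), *rplp1* (0.80, adjusted p = 0.381), *rpl19* (0.67, adjusted p = 0.411) and *rps28* (0.76, adjusted p = 0.419). *rpl29* and *rps28* were higher in RG in 6 of 6 fish, and *rplp1* and *rpl19* in 5 of 6. In all, 14 of the 78 genes were higher in RG in every fish, 17.9%, against 4.03% of all genes tested. All genes tested include many of lower abundance, and genes of like abundance were not compared. The smallest fitted change towards RG was that of *rpl31* (0.0057), a large subunit protein near the exit of the nascent chain.

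Within the NBN gate, cells were divided by reads of *tubb5*, a beta-tubulin of young neurons. Cells with at least 1 read of *tubb5* (97 of 164) had a higher share of ribosomal protein reads than those without (67) in 6 of 6 fish. In *tubb5*-positive cells the share was 11.6%, 8.29%, 10.2%, 6.95% and 10.4% in fish 1 to 5 and 2.71% in bfx811. In *tubb5*-negative cells it was 4.61%, 2.18%, 3.74%, 2.68% and 3.55% in fish 1 to 5 and 1.55% in bfx811. All 5 numbered fish had *tubb5*-positive sums above all *tubb5*-negative ones, while the positive sum of bfx811 lay within the negative range.

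The means were 8.34% ± 3.21 (SD, n = 6) and 3.05% ± 1.12 (SD, n = 6). Within a fish, the share in *tubb5*-positive cells was 2.51, 3.81, 2.72, 2.59 and 2.93 times that in *tubb5*-negative cells in fish 1 to 5 and 1.75 times in bfx811. The mean difference was 5.29 ± 2.25 percentage points (SD over 6 fish), and 6.12 in the 5 fish of batch bfx855. Among single cells, 43 of 97 *tubb5*-positive cells and 0 of 67 *tubb5*-negative cells had more than 10% of their reads on the family. Under 3% were 43 of 67 *tubb5*-negative cells (64.2%) and 15 of 97 *tubb5*-positive cells (15.5%).

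The *tubb5*-positive cells were also divided at 1000 and 10000 CPM of *tubb5*, limits chosen after seeing the data, and no other limits were compared. Over all fish, the median share was 2.65% in the 67 cells with no read of *tubb5* and 2.38% in the 21 cells with a level under 1000 CPM. It was 10.2% in the 47 cells at 1000 to 10000 CPM and 9.99% in the 29 cells above. These medians pool fish that differ in share, and 8 of the 21 cells under 1000 CPM came from bfx811. Within fish, the median at 1000 to 10000 CPM was above that of cells with no read in 6 of 6 fish. Cells under 1000 CPM had a lower median than cells with no read in 4 fish and a higher one in fish 2 (6.43% against 2.37%) and fish 3 (4.08% against 3.88%), from 1 to 8 cells a fish, and single cells of this class reached 13.3%. Above 10000 CPM the median was higher than at 1000 to 10000 CPM in 4 of 6 fish and lower in fish 2 and bfx811. Of the 12 *tubb5*-positive cells of bfx811, 8 were under 1000 CPM, with a median share of 1.17%, while its 2 cells at 1000 to 10000 CPM had shares of 8.36% and 8.65%.

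**Figure D2:**
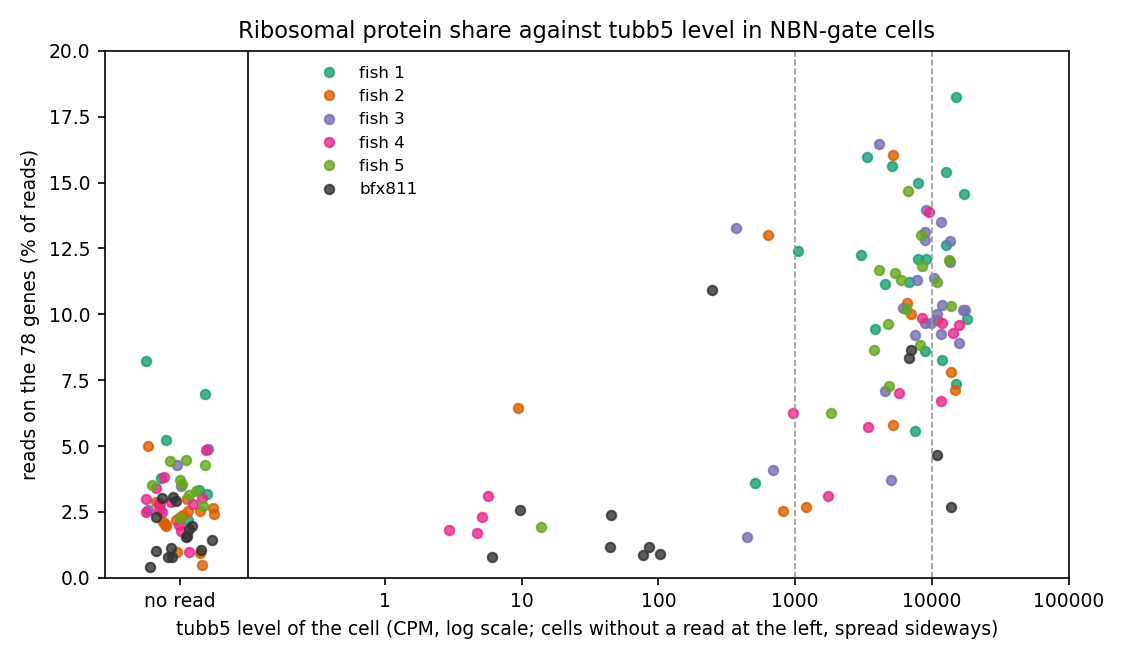
Share of reads on the 78 genes (y axis, percent) against the *tubb5* level (x axis, CPM on a log scale, cells without a read at the left) in 164 NBN-gate cells coloured by fish; dashed lines mark 1000 and 10000 CPM. The median share is 2.65% without a read, 2.38% under 1000 CPM, 10.2% between the lines and 9.99% above them.

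The rank correlation of *tubb5* level and share over the cells of a fish was 0.58, 0.75, 0.44, 0.70 and 0.84 in fish 1 to 5 and 0.39 in bfx811 (Spearman's rho, 26 to 28 cells each). It describes cells of 1 fish that share a denominator, and no test was made of it. The median depth was 330611 reads in *tubb5*-positive and 206230 in *tubb5*-negative cells. After each cell was thinned to 20000 reads, the median number of the 78 genes with a read was 76 in *tubb5*-positive and 44 in *tubb5*-negative cells. The difference in mean share over fish was then 5.24 percentage points.

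Most of the family passed the test as single genes. Of the 78, 55 were called higher in *tubb5*-positive NBNs (edgeR, 6 sums against 6), against 1.81% of all 7242 genes tested, and 0 were called lower, against 0.0414%. The family made up 55 of the 131 genes called higher. DESeq2 called 66 higher and 0 lower, and its share over all genes is not reported here. The 55 were 30 of 44 large and 25 of 34 small subunit genes. At an unadjusted p under 0.05 edgeR gave 77 of the 78, against 480 of all 7242 genes tested. The median log2 fold change was 1.85 over the 78 (1.84 for the large and 1.86 for the small subunit) against 0.16 over all genes tested.

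The genes moved by like amounts. The middle 50% of the 78 lay between log2 fold changes of 1.65 and 2.01, against -0.61 and 0.98 over all genes tested, which include many of lower abundance. In 67 of the 78 genes (85.9%) the level was higher in *tubb5*-positive cells in every fish, against 5.52% of all genes tested. Genes of like abundance were not compared.

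**Figure D3:**
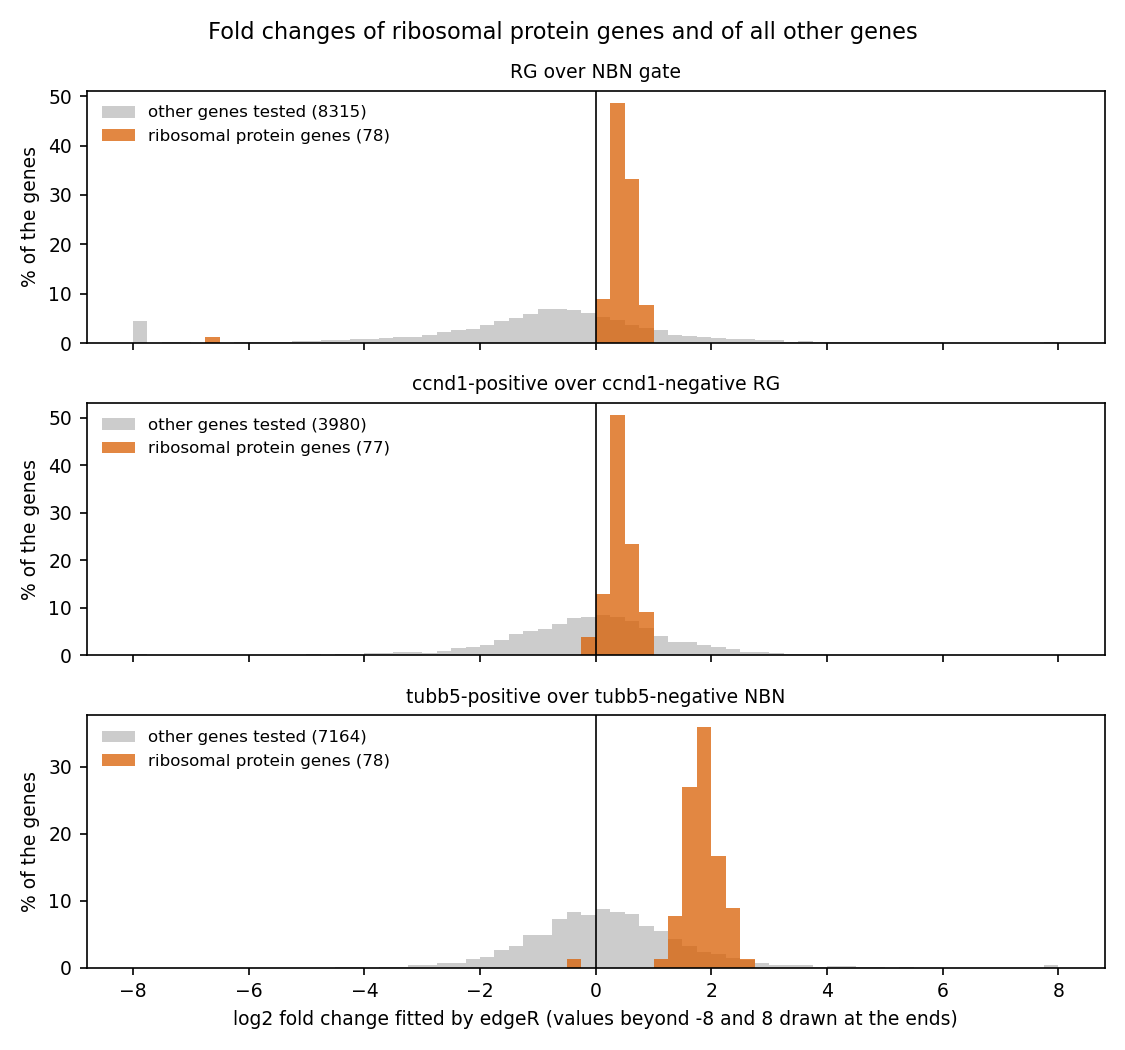
Log2 fold changes fitted by edgeR (x axis) for ribosomal protein genes and all other genes tested (y axis, percent of each set of genes) in the 3 comparisons. The ribosomal protein genes form a narrow peak with a median of 0.46 for RG over NBN, 0.44 for ccnd1-positive over ccnd1-negative RG and 1.85 for tubb5-positive over tubb5-negative NBN.

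*rpl7a*, a large subunit protein, had the lowest p. It was at 2577, 1740, 2278, 1686 and 2374 CPM in *tubb5*-positive cells of fish 1 to 5 and 752 CPM in bfx811. In *tubb5*-negative cells it was at 685, 174, 706, 473 and 569 CPM in fish 1 to 5 and 273 CPM in bfx811. The groups did not overlap, and the lowest positive sum was that of bfx811. The log2 fold change was 2.42 ± 0.37 (SE; adjusted p = 0.00268, edgeR).

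*rpl18* did not overlap between the classes either, at 699 to 2154 CPM (1441 ± 562, SD, n = 6) against 159 to 586 CPM (388 ± 141). Its log2 fold change was 2.31 ± 0.37 (SE; adjusted p = 0.00268, edgeR). *rpl32* was at 1004 to 2475 CPM (1824 ± 510) against 379 to 1022 CPM (596 ± 226), and rose by 2.001 ± 0.32 on the log2 scale (adjusted p = 0.00268). Both encode large subunit proteins and were higher in 6 of 6 fish, and the only overlap for *rpl32* was between the positive sum of bfx811 and the negative sum of fish 1.

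*rpl3*, which reaches to the peptidyl transferase centre, was at 3028, 2741, 4674, 2049 and 3869 CPM in *tubb5*-positive cells of fish 1 to 5 and 917 CPM in bfx811, and at 1009, 492, 1193, 662 and 1141 CPM in *tubb5*-negative cells of fish 1 to 5 and 805 CPM in bfx811. In bfx811 the 2 classes were close. The log2 fold change was 2.12 ± 0.35 (SE; adjusted p = 0.00305, edgeR). *rps20* was at 433 to 1489 CPM (1142 ± 400) against 151 to 531 CPM (340 ± 130), a log2 fold change of 2.16 ± 0.37 (adjusted p = 0.00401).

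The genes with the most counts were called too. *rpl19*, *rpl4*, *rpl6* and *rps2*, which with *rpl3* had the highest mean CPM over RG and NBN sums without regard to length, were called, at 1993 against 878, 2091 against 721, 1669 against 715 and 1661 against 609 CPM (means of 6 fish). Their log2 fold changes were 1.61, 1.94, 1.63 and 1.85, with adjusted p-values of 0.0122, 0.0119, 0.0193 and 0.0130 (edgeR), and each was higher in 6 of 6 fish.

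**Figure D4:**
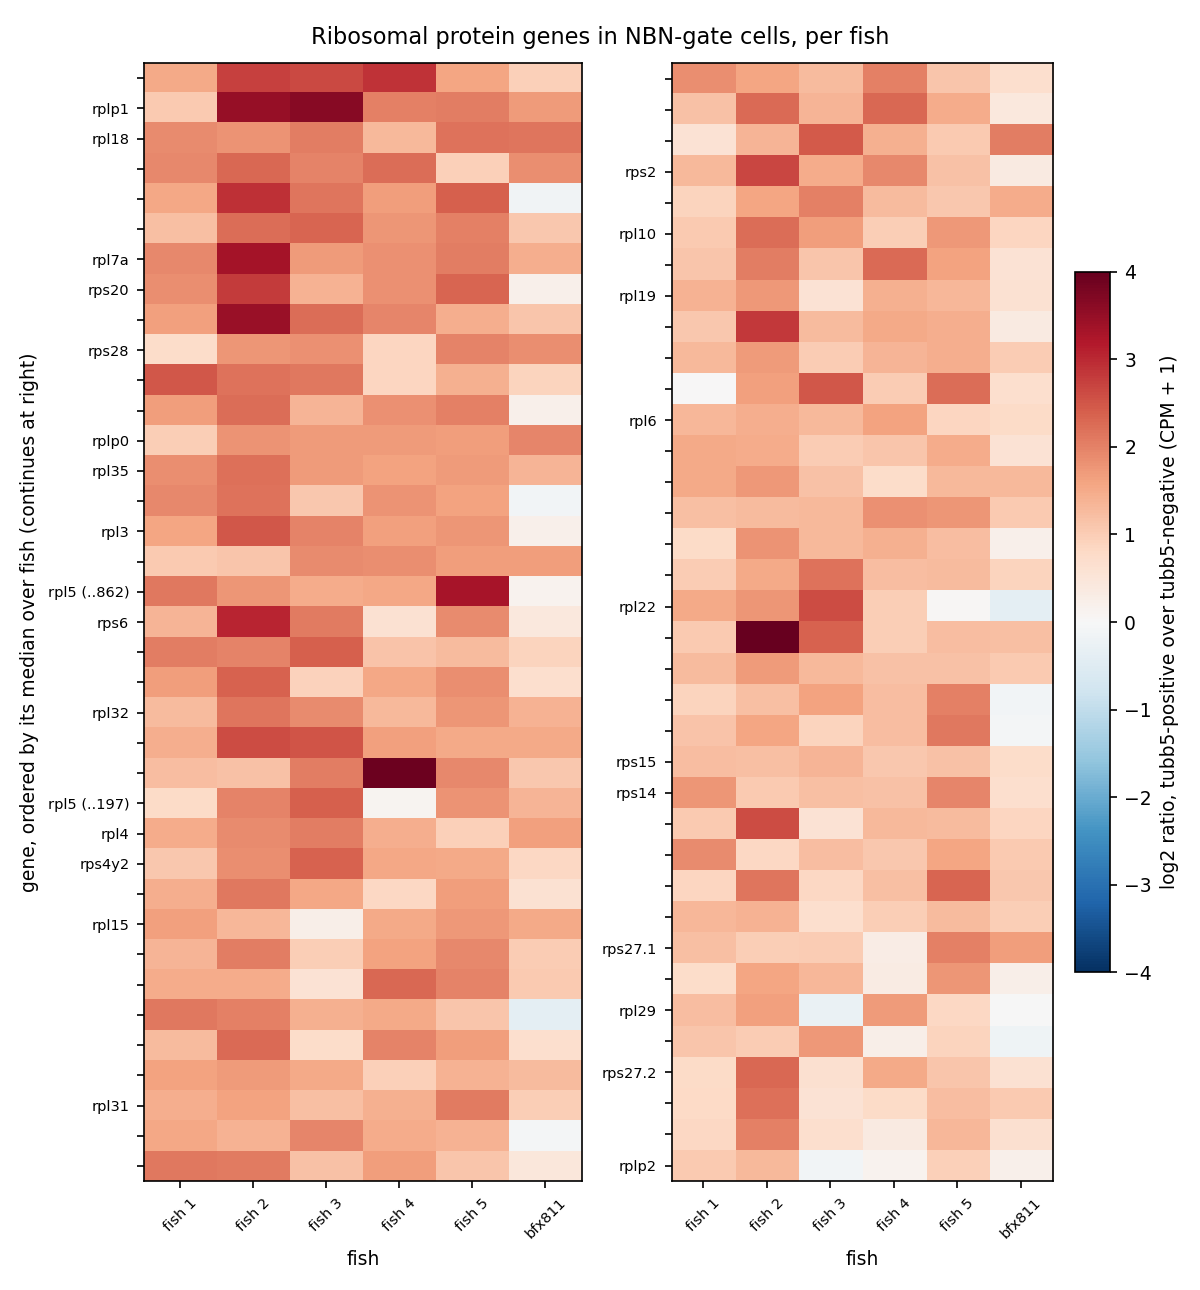
Log2 ratio of the level (CPM + 1) in tubb5-positive over tubb5-negative NBN-gate cells (colour) for 73 of the 78 genes (rows, labelled where the text names the gene, with the last 3 digits of the identifier where a symbol is shared) in each fish (columns). In 63 of the 73 rows the ratio is above 0 in all 6 fish, and the palest column is that of bfx811.

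The stalk of the large subunit, which recruits the elongation factors, is formed by *rplp0* as its base and the acidic proteins *rplp1* and *rplp2*. *rplp0* rose from 636 ± 313 to 1873 ± 711 CPM (SD, n = 6 each), a log2 fold change of 1.97 ± 0.42 (SE; adjusted p = 0.0158, edgeR). *rplp1* rose from 359 ± 330 to 1498 ± 553 CPM, a log2 fold change of 2.45 ± 0.49 (adjusted p = 0.0117). *rplp2* was at 494 ± 222 and 732 ± 273 CPM and did not pass (log2 fold change 1.01 ± 0.37, adjusted p = 0.359), with a lower level in the *tubb5*-positive sum of fish 3 (816 against 879 CPM). A difference between the changes of *rplp1* and *rplp2* was not tested.

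Where a protein has 2 identifiers, calls could differ between copies fitted in the same direction. For *rpl5*, which binds the 5S RNA, the copy ENSDARG00000015862 was called (log2 fold change 2.33 ± 0.52, adjusted p = 0.0193, edgeR) and ENSDARG00000020197 was not (1.61 ± 0.56, adjusted p = 0.301). For *rps27*, *rps27.1* was called (1.57 ± 0.34, adjusted p = 0.0181) and *rps27.2* was not (1.504 ± 0.41, adjusted p = 0.0750), at almost equal fold changes. Among other genes that were not called, *rpl22*, with 355 against 160 CPM (means of 6 fish), was higher in 5 of 6 fish (1.52 ± 0.58, adjusted p = 0.429).

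The number of calls depended on each numbered fish and on the scaling, while the fitted changes did not turn. Without fish 1, 2, 3, 4 or 5 the number called higher was 27, 7, 9, 27 or 19 of 78, and without bfx811 it was 67, with 77 of the 78 genes fitted higher each time. Scaled by library size alone, 12 were called higher and the median log2 fold change was 1.41 over the 78 and -0.20 over all genes. With DESeq2's size factors in edgeR 36 were called, at medians of 1.62 and -0.02. Other cell types also moved with the classes: 3 oligodendrocyte precursor markers summed to 0 to 263 CPM (median 56.5) in *tubb5*-positive and 0 to 1085 CPM (median 600) in *tubb5*-negative sums, and 3 markers of mature neurons to 114 to 939 (median 275) and 289 to 2387 CPM (median 703). Without cells that had *olig2* reads, 52 of the 78 were called higher, and the part of the mature neuron markers was not tested. For the alternative fits given here, the counts of all genes called are not reported.

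Compared with each NBN class in turn, a split of the gate comparison chosen after seeing the data, RG differed from the *tubb5*-negative cells. Of 77 genes tested, 69 were called higher in RG than in *tubb5*-negative NBNs, against 4.14% of all genes, and 0 lower, against 3.99% (edgeR). At an unadjusted p under 0.05 (edgeR) were 77 of 77, and the count over all genes at that limit is not reported here. The median log2 fold change was 1.97, against -0.37 over all genes. *rps20* had a log2 fold change of 2.76 ± 0.42 (SE; adjusted p = 0.000154), *rpl3* one of 2.36 ± 0.35 (adjusted p = 0.000114) and *rplp2* again the lowest, 1.19 ± 0.42 (adjusted p = 0.108).

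Against *tubb5*-positive NBNs, none of the 77 genes tested was called higher in RG, against 2.06% of all genes, and none lower, against 3.93% (edgeR). At an unadjusted p under 0.05 (edgeR) were 0 of the 77, and the count over all genes at that limit is not reported here. DESeq2 was not run on this split. The median log2 fold change was 0.36, against -0.29 over all genes, and 76 of 77 genes were fitted higher in RG. Both splits share the RG sums with the comparison of the gates. Against the whole NBN gate, 0 were called higher in RG.

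Among RG, cells were divided by *ccnd1*, the cyclin by which the study separated proliferating from quiescent RG. The share was higher in *ccnd1*-positive RG in 4 of the 5 fish with at least 3 cells of each class when reads were summed, and in 2 of 5, fish 5 and bfx811, by the median over cells. In *ccnd1*-positive RG it was 18.8%, 15.01%, 10.6% and 17.0% in fish 1, 2, 4 and 5 and 8.95% in bfx811. In *ccnd1*-negative RG it was 17.3%, 15.6%, 8.93% and 6.42% in the same fish and 5.35% in bfx811, and 7.24% in fish 3, which had 1 positive cell. The classes overlapped widely, and the largest gap, in fish 5, was between 4 positive and 8 negative cells.

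The mean difference was 3.35 ± 4.28 percentage points (SD over 5 fish), and 1.56 without fish 5. No gene of the family was called in either direction: 0 of 77 higher, against 0.0% of all 4057 genes tested, and 0 lower, against 0.0246% (edgeR). DESeq2 also called 0 of the family, and its count over all genes is not reported here. Of the 77, 0 had an unadjusted p under 0.05 (edgeR). Over all genes, 80 of 4057 had an unadjusted p under 0.05. The median log2 fold change was 0.44 over the 77 genes, 74 of them fitted higher in *ccnd1*-positive RG, against -0.04 over all genes.

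The median was 0.29 without fish 5. The lowest p among these belonged to *rpl35*, a large subunit protein (log2 fold change 0.83 ± 0.47, adjusted p = 0.999, edgeR), and to *rps15* (0.85 ± 0.48) and *rps20* (0.72 ± 0.41). *rps15* and *rps20* were higher in *ccnd1*-positive RG in 5 of 5 fish, and *rpl35* in 3 of 5. *rpl10* (0.69 ± 0.41) and *rps14* (0.76 ± 0.46) followed, higher in 5 of 5 fish. The genes fitted lower were *rps27.2* (-0.19 ± 0.62), *rplp2* (-0.11 ± 0.54) and the *rpl5* copy ENSDARG00000020197 (-0.0026 ± 0.70). *rps20* was at 2177 to 3771 CPM in *ccnd1*-positive and 1102 to 3279 CPM in *ccnd1*-negative RG, so the classes overlapped. In all, 13 of the 77 genes were higher in every fish, 16.9%, against 2.61% of all genes tested. Here too, genes of like abundance were not compared. Microglial markers (3 genes) summed to 0 to 493.5 CPM in *ccnd1*-positive and 0 to 2958 CPM in *ccnd1*-negative RG, and 9 RG markers to 14984 to 22780 and 24387 to 48872 CPM, which do not overlap. Their part in the values was not tested.

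MNs could be set only beside the NBN gate of the same batch, with 27 cells and 1 sum each, so no test was possible. The share was 2.12% in MNs and 2.09% in NBNs of bfx811, of 5154208 and 3228221 reads. At or above 20 CPM in either sum were all 78 genes, of which 1 was at least 2-fold higher in MNs, against 29.1% of 8432 genes, and 0 were at least 2-fold lower, against 27.7%. The median log2 ratio was 0.08 over the family and 0.05 over all genes. The family was near level between these sums, while the other genes spread widely in both directions. Most members lay well above the limit of 20 CPM, up to 962 CPM in MNs (*rpl3*). Genes of like abundance were not compared, so the narrow spread is not shown to be particular to the family.

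Just under 2-fold higher in MNs was *rpl15*, at 410 CPM (95% exact Poisson interval 393 to 428, counting error only) against 206 CPM (191 to 222). At the other end stood *rps6*, the substrate of the S6 kinases, at 258 (245 to 273) in MNs against 432 CPM (410 to 456) in NBNs. In the same batch, RG had a share of 7.12%, *tubb5*-positive NBNs 2.71% and *tubb5*-negative NBNs 1.55%.

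Other parts of the translation machinery were read for the same classes. The list of elongation factors also held *eef1akmt1* and *eef1e1*, which are not elongation factors themselves. That of initiation factors also held *eif4ebp2* and *eif4ebp3*, which are not initiation factors themselves. Counts and medians of these lists cover such genes where they were tested. Of 11 elongation factor genes tested between *tubb5* classes, 4 were called higher in *tubb5*-positive NBNs and 0 lower, against 1.81% and 0.0414% of all genes tested, with a median log2 fold change of 1.49. *eef1a1l1*, an EF1A that brings aminoacyl-tRNA to the ribosome, rose from 2269 ± 717 to 6937 ± 2812 CPM (SD, n = 6 each; log2 fold change 2.03 ± 0.33, adjusted p = 0.00268, edgeR). *eef1g*, of the exchange factor complex, rose by 2.43 ± 0.39 on the log2 scale (adjusted p = 0.00268), and *eef2b*, a translocation factor, by 2.16 ± 0.41 (adjusted p = 0.00874). *eef1b2*, also of the exchange complex, rose by 2.53 ± 0.61 (adjusted p = 0.0326, which became 0.0604 in the blocked fit).

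Other copies of the same factors pointed the other way without a call. The *eef1a1* gene ENSDARG00000039502 was lower in *tubb5*-positive cells in 6 of 6 fish, at 633 ± 209 against 1244 ± 480 CPM (log2 fold change -0.65 ± 0.34, adjusted p = 0.895, edgeR). *eef2* was lower in 6 of 6 fish as well, at 173 ± 203 against 527 ± 253 CPM (log2 fold change -1.27 ± 0.70, adjusted p = 0.953). The fitted directions of the copies were thus opposite, but only those of *eef1a1l1* and *eef2b* passed the test.

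Of 21 genes of factors that sit on the ribosome, 5 were called higher and 0 lower, beside the same shares of all genes, with a median log2 fold change of 1.28. *rack1*, a scaffold on the small subunit, rose from 459 ± 222 to 1581 ± 565 CPM (log2 fold change 2.22 ± 0.38, adjusted p = 0.00401, edgeR), and *tpt1* from 556 ± 200 to 1883 ± 815 CPM (2.13 ± 0.39, adjusted p = 0.00698). *naca*, of the nascent chain complex, rose by 1.28 ± 0.31 on the log2 scale (adjusted p = 0.0299, blocked 0.0828). *sec61a1*, of the translocon, was at 68.5 ± 46.2 CPM and had no read in any *tubb5*-negative sum (adjusted p = 0.0157, blocked 0.125).

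Initiation factors gave 0 calls among 51 genes tested, with a median log2 fold change of 0.71. At an unadjusted p under 0.05 (edgeR) were 7 of the 51, against 480 of all 7242 genes tested. The lowest adjusted p was that of *pabpc1a*, a poly(A)-binding protein (1.16 ± 0.32, adjusted p = 0.0750). Of 48 ribosome assembly genes, 1 was called higher, *npm1a*, the nucleolar nucleophosmin, at 97.4 ± 57.8 against 0.240 ± 0.465 CPM (adjusted p = 0.0110, edgeR), and the median log2 fold change was 0.68. Of 62 mitochondrial ribosomal protein genes, 1 was called higher, *mrpl16* (adjusted p = 0.0180, blocked 0.116), and the median was 0.12, beside 0.16 over all genes. A single call among the assembly genes and among the mitochondrial genes is near the 1.81% of all genes called higher.

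Between the RG and NBN gates, 1 of 14 elongation factor genes was called higher in RG, against 1.81% of all genes. Called lower was 1 of 53 initiation factor genes, against 6.66% of all genes. No call fell among 68 ribosome assembly genes, 21 genes of factors on the ribosome and 67 mitochondrial ribosomal protein genes. *eef1da*, of the exchange complex, was higher in RG, at 309 ± 193 against 3.09 ± 5.13 CPM (adjusted p = 0.0120, edgeR), and the *eif3b* gene ENSDARG00000074213 had no read in RG and was at 20.5 ± 21.5 CPM in NBNs (adjusted p = 0.00634). Median log2 fold changes were 0.02 for elongation factors, -0.29 for initiation factors, 0.65 for ribosome assembly, 0.01 for factors on the ribosome and -0.49 for mitochondrial ribosomal proteins, beside -0.69 over all genes. By *ccnd1*, none of these genes was called, and none had an unadjusted p under 0.05 (edgeR).

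Over the 164 NBN-gate cells, the genes whose level most followed the ribosomal protein share were ranked among 444 other genes with a read in at least 82 cells, whose median Spearman's rho was 0.08. First was *si:dkey-151g10.6* (rho 0.84, 0.63 to 0.86 within single fish), then an unnamed gene, ENSDARG00000098458 (0.82), and *eef1a1l1* (0.81, 0.25 to 0.88 within single fish). Among those that followed were *rack1* (0.77, 0.37 to 0.76 within single fish), *rplp2l* (0.76, 0.52 to 0.68 within single fish), a stalk gene outside the naming rule, *tuba1a* (0.75), an alpha-tubulin, *eef1g*, *ybx1*, a cold-shock RNA-binding protein, and *tpt1* (0.74 each, for *tpt1* 0.22 to 0.84 within single fish). *tubb5* was at 0.73. These are descriptions over cells that share a common denominator, and cells were pooled over fish that differ in share. The pooled values of *rack1*, *rplp2l* and *ybx1* lay above those of every single fish.

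At the other end of the same ranking stood *malat1*, a nuclear long non-coding RNA (rho -0.73), *aldoc* (-0.68), *eno1* (-0.55) and *pkm* (-0.54), which encode glycolytic enzymes, and *ptprn2* (-0.53) and *snap25* (-0.51), of secretory and synaptic vesicle release. The end genes were read off the ranking after it was seen. Among the 77 ribosomal protein genes with a read in at least 82 cells, rho of a gene with the share it is part of was 0.53 to 0.86.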

How the data were processed

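The authors sequenced single cells with SMART-seq2, aligned single-end reads to GRCz10 with GSNAP (2017-08-15), assigned reads with 1 best alignment to Ensembl genes through featureCounts (1.5.3), and deposited raw counts per cell without normalization. Strand use in counting is not given in the sources used here, so overlapping and antisense genes cannot be told apart, and without molecular identifiers intervals cover counting error only. The table lists no spike-in, and the spike-in filter was therefore not applied.

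The study's other cell filters were applied (264 of 370 cells: log10 reads above 4.5, log10 genes with more than 1 read from 2.7 to 3.9, under 50% of reads in the 50 most abundant genes, under 20% mitochondrial, over 20% mapped). Cells had been sorted singly into wells and no doublet caller was run. Counts were summed per fish and group, keeping sums of at least 3 cells, and tested with edgeR 4.0.16 (TMM, filterByExpr, quasi-likelihood) in R 4.3.3, with p-values adjusted over all genes tested. DESeq2 1.42.0 and Python 3.11.15 (pandas 2.3.3, scipy 1.17.1) served alternatives and shares. Fits were also run on simulated sums, with an outcome not reported here. The changes set in them were larger than the median changes of the family, fell on randomly drawn genes and came without a fish effect. They therefore do not show how the fits treat a smaller shift of the whole family. Symbols came from a gene name table (26433 of 32266 genes). P-values measure the spread between the sums of 6 fish in each group, where bfx811 is also a batch of its own. By *ccnd1* they rest on 5 positive and 6 negative sums. The main fits had no term for fish, so the 2 sums of 1 fish were treated as independent.

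Groups of 1 fish come from the same animal. With group means removed, r over the 2000 genes with most counts between RG and NBN sums of 1 fish was -0.036 to 0.147, and -0.0182 to 0.144 between *tubb5* classes. Both highest values, 0.147 and 0.144, were those of bfx811. These r values do not describe the family alone. Its share was highest in fish 1 (11.6% and 4.61%) and lowest in bfx811 (2.71% and 1.55%) in both *tubb5* classes. An alternative fit took fish as a block.

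Named genes were, for each comparison, the 5 members with the lowest adjusted p in each direction, members called against the trend, the highest and lowest by CPM, the stalk, copies that differ in call, up to 3 genes of each related list in each direction, and the 10 genes most like the share. Genes of related lists without a call are mostly given as counts only, and some genes that the rule gives are not reported here. The members and lists were chosen with earlier results of these data known.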

Additional observations from a re-analysis of the deposited data

Results flagged for a closer look

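In 3 of the 54 groups of 5 or 6 fish examined, 1 fish stood apart from the rest by Dixon's ratio, which chance alone gives in about 1 group in 20. Among *tubb5*-negative NBNs, fish 1 was high for *rplp1* (1003 CPM, with the others at 145 to 380 CPM) and for *rpl32* (1022 CPM, with the others at 379 to 603 CPM). Among *ccnd1*-negative RG, fish 1 was high for *rps20* (3279 CPM, with the others at 1102 to 1807 CPM).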

How the results depend on the processing

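The number of genes called higher in *tubb5*-positive NBNs (55) was 66 with DESeq2, 58 with normalization factors computed without the family, 61 without a filter on low counts, 58 in cells thinned to 20000 reads, 63 with classes set after thinning, 46 with a minimum of 1000 CPM of *tubb5* and 55 in all 370 cells. It fell to 36 with DESeq2's size factors in edgeR and to 12 with library size alone, where the median log2 fold change was 1.41, and lay between 7 and 67 when 1 fish was left out. With the fish as a replicate block it was 59, 50 of them among the 55. None of these settings called a gene of the family lower, and the shares of all genes called under them are not reported here. For RG against NBNs (1 call, lower in RG) the number of calls in either direction was 2 with DESeq2's size factors or library size alone (1 higher, 1 lower), 4 in all 370 cells (3 higher, 1 lower), 0 without a filter on low counts, 1 to 2 with 1 fish left out (the added call, without fish 3, is higher in RG) and 1 with the fish as a block. Over all genes tested in all 370 cells, 282 of 8717 were called higher in RG and 501 lower. Of 8393 genes, DESeq2's size factors in edgeR gave 198 higher and 542 lower. Library size alone gave 203 and 548 of the 8393, and the fish as a block 198 and 837. Without the filter on low counts 378 of 22146 were higher and 854 lower, and without fish 3 169 of 8786 and 548. For the other fish left out, the counts over all genes are not reported here. With the NBN gate limited to *tubb5*-negative cells the number of calls in the family was 69, all higher in RG, at a median log2 fold change of 1.97. Limited to *tubb5*-positive cells it was 0. By *ccnd1* it was 0 throughout, the block included. The cause of these changes was not tested, though leaving out a fish also leaves fewer sums. The mean differences in share kept their sign under every setting, at 3.46 to 5.81 points between gates, 1.56 to 4.61 by *ccnd1* and 4.96 to 6.12 by *tubb5*, though by *ccnd1* the median over cells was lower in the positive class in 3 of 5 fish (1, 2 and 4). All genes together shifted by more than 0.1 on the log2 scale between scalings, from a median of 0.16 to -0.20 between *tubb5* classes. The sums of RG split by *ccnd1* held the fewest reads, down to 593733.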

Other observations

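The *tubb5* classes were also divided by reads of *EBF3*, a transcription factor, after seeing the data and without a test, pooling cells over fish. Among *tubb5*-negative NBN-gate cells, the median share was 2.65% both in the 48 cells with and in the 19 cells without an *EBF3* read. Among *tubb5*-positive cells it was 7.97% in the 32 cells with and 9.81% in the 65 cells without a read, with overlapping ranges of 0.788% to 18.3% and 1.16% to 16.5%.

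The cells that failed the quality filters were mostly RG (98 of 171). Their median share was 6.61%, with a range of 0 to 29.4%, beside a median of 9.36% in the RG that passed. Of the 4 copies with a letter l after the number, left out of the family, 2 or 3 were tested in each of the 3 comparisons and none was called in any of them, with 1 at an unadjusted p under 0.05 by *tubb5* and 0 in the others (edgeR). Among these, *rpl22l1* was at 186 ± 108 CPM in *tubb5*-positive and 38.7 ± 15.5 CPM in *tubb5*-negative sums (adjusted p = 0.0865, edgeR).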
